A study of Drosophila melanogaster with 15 samples.

Results

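The hypoxia response of Drosophila melanogaster females that lack the transcription factor FOXO was examined across all genes. The comparison set the 4 foxo mutant libraries made after 16 h at 1% oxygen (hypoxia) against the 4 foxo mutant libraries kept in normal air (normoxia), which are 8 of the 15 libraries measured. Each library held whole-body poly-A RNA of 5 mated females, about 7 days old. The mutants carried foxoΔ94, described by the study as a null allele, so both arms of the comparison lack FOXO. The remaining 7 libraries came from w1118 females, the control strain, with 3 in normoxia and 4 after the same hypoxia. They enter here for the estimate of spread and for the test of whether a change differed between the genotypes. No matching of the genetic background of the mutant to w1118 was stated, so the genotype effect includes any other difference between the stocks. Members were taken by their library labels, and values are TPM, the transcript share scaled to a fixed total in each library, summed per gene.

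Flies survive long bouts of low oxygen by shifting their metabolism. The best known branch runs through the hypoxia-inducible factor Sima and its partner Tango. In normal air, the prolyl hydroxylase Hph marks Sima for destruction through Vhl, and low oxygen lets Sima accumulate and switch on genes such as lactate dehydrogenase and the tracheal growth factor branchless. FOXO works beside this branch as the transcription factor that insulin signaling holds in the cytoplasm. It enters the nucleus in starvation and other stress, and its known targets in the fly include the translation repressor Thor and the insulin receptor.

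Expression of foxo was 0.257 TPM or less in all 8 mutant libraries after summing its transcripts. Markers of the male reproductive tract were at or near 0, with Mst87F the highest at 0.351 TPM and SP and Acp76A at 0 in every mutant library. TPM hold no read number, so depth is unknown and the precision is that between libraries. The first principal component of the 8 libraries (58.4% of the variance) separated hypoxia from normoxia. The next (22.8%) set hypoxia library 2 against hypoxia library 4, at 46.6 and -49.1, while the other 6 lay between -9.54 and 16.0. In these libraries, ribosomal protein mRNAs took 43.3% and 32.8% of all TPM, against 39.3% and 39.8% in the other hypoxia libraries and 34.2% to 37.5% in normoxia. Their part in the results below was not tested, but the counts were repeated without them.

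At an adjusted p (Benjamini-Hochberg, limma) under 0.05 and a change of over 1.5-fold, hypoxia raised 726 genes (7.06% of the 10288 tested) and lowered 1218 (11.8%) in foxo mutants. A gene was tested where its mean reached 1 TPM in at least 1 of the 4 groups. All changes are differences of log2(TPM + 1), hypoxia minus normoxia, and the added 1 understates the change of weakly expressed genes. The genes called up were the more strongly expressed, with a median level over the 8 libraries of 25.1 TPM, against 8.61 TPM for those called down. Past 2-fold there were 378 genes up and 700 down, past 4-fold 145 and 198, and past 8-fold 68 and 53. Of the genes called up, 599 had all hypoxia libraries above all normoxia libraries, and of those called down 1094 had them all below. Over all genes tested 26.4% had no overlap in either direction. The median change of all genes was -0.04. Members of gene lists are counted below at an adjusted p under 0.05 whatever their fold, which 9.34% of all genes passed upward and 13.5% downward.

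**Figure D1:**
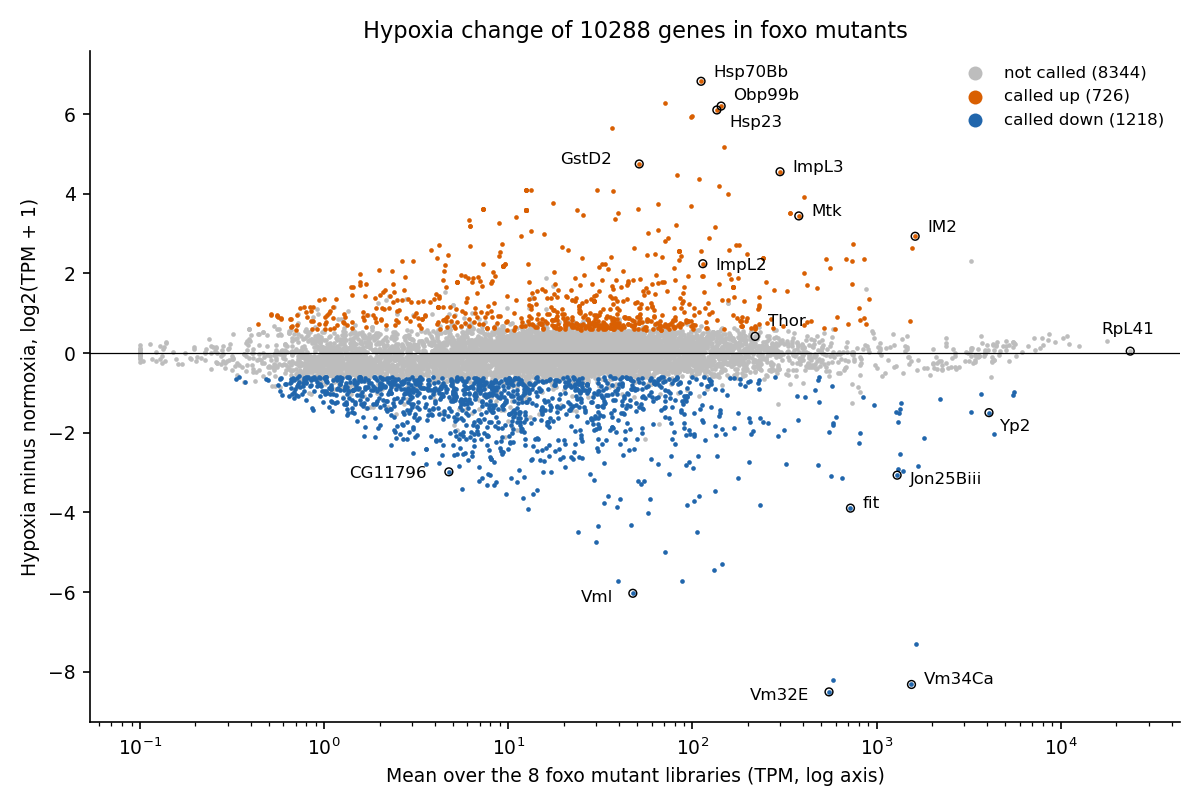
Each point is 1 of 10288 genes, with its mean level over the 8 foxo mutant libraries (TPM, log axis, levels under 0.1 drawn at 0.1) and its hypoxia minus normoxia difference on log2(TPM + 1). Orange points are the 726 genes called up and blue points the 1218 called down. Heat shock genes reached 6.83 at the top, and vitelline membrane genes -8.51 at the bottom.

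The strongest rises were of heat shock chaperones, the proteins that refold or hold damaged protein. Of 27 members tested 16 rose and none fell, with a median change of 0.81. Hsp70Bb, an inducible chaperone of chromosome 3R (12505793 to 12508139, dm6), stood at 0.458, 1.22, 0.840 and 1.34 TPM in normoxia libraries 1 to 4, and at 237, 161, 267 and 222 TPM in hypoxia libraries 1 to 4. It was near the floor in every normoxia library and over 100 TPM in every hypoxia library, with a change of 6.83 ± 0.20 (SE, adjusted p = 6.01e-12). Hsp23, a small heat shock protein that binds unfolded protein, went from 2.80, 3.04, 2.02 and 3.42 TPM to 254, 181, 378 and 262 TPM, a change of 6.11 ± 0.21. Hsp68, an inducible relative of Hsp70, changed by 5.95 ± 0.19, from between 1.54 and 2.88 TPM to between 152 and 226 TPM. In each of these genes hypoxia library 2 was the lowest of the hypoxia libraries and still far above normoxia.

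The inducible Hsp70 genes lie in a pair of clusters on 3R and are nearly identical, so the split of reads among copies is uncertain. Hsp70Bbb, Hsp70Aa, Hsp70Bc and Hsp70Ab rose by 6.29, 5.93, 5.66 and 4.47. Hsp70Ba was the exception among the copies. It was listed at 0 in all normoxia libraries of the mutant and reached at most 0.153 TPM in hypoxia. It passed the filter on low values through w1118 hypoxia alone, at a mean of 21.5 TPM, and whether the mutant stock carries this copy was not tested. In w1118 Hsp70Ba changed by 4.07, and the difference between the genotypes passed the test (-3.95 ± 0.29, adjusted p = 7.80e-06). Among the weaker rises were Hsp22, at 3.99, a small heat shock protein of mitochondria, and Hsp26, at 0.81. Hsf, the transcription factor that drives heat shock genes, rose by 0.65. The constitutive chaperones Hsc70-4 and Hsp83 did not pass the test, whereas Gp93, listed with the unfolded protein genes, rose by 0.64 ± 0.11. Hsc70-4, the most abundant of the list, stood at 1946 to 2533 TPM in normoxia and 1472 to 2347 TPM in hypoxia, with overlapping groups and a change of -0.09 ± 0.16 (adjusted p = 0.738). Hsp83, the fly Hsp90, changed by 0.15 ± 0.18.

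Genes of the HIF branch also rose without FOXO, 6 of 10 up and none down, with a median of 0.85. ImpL3, the lactate dehydrogenase that regenerates NAD+ when respiration stalls, was at 19.8, 42.1, 19.2 and 18.0 TPM in normoxia and at 640, 456, 632 and 566 TPM in hypoxia. Normoxia library 2 was above the other normoxia libraries but far below every hypoxia library, and the change was 4.56 ± 0.23 (adjusted p = 2.20e-09). The growth factor bnl, which guides tracheal branches to oxygen-poor cells, rose from between 1.60 and 2.56 TPM to between 18.3 and 32.3 TPM, by 3.07 ± 0.31. The repressor h (hairy) rose by 1.68 ± 0.29, Hph by 1.26 ± 0.19, Vhl by 0.98 ± 0.14 and the nuclear receptor ERR by 0.53 ± 0.13. The transcripts of the factors themselves did not pass the test, with sima at 0.12 and tgo at -0.17.

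Of 14 glycolytic genes tested, 4 rose and none fell, and apart from ImpL3 the changes were small. Gapdh2 rose by 0.48 ± 0.11, from 975, 1059, 1014 and 1030 TPM to 1520, 1259, 1252 and 1688 TPM. The groups did not overlap, although the lowest hypoxia library lay not far above the highest normoxia library. Pgi rose by 0.41 and Eno by 0.37. Of 15 genes of gluconeogenesis, glycogen and trehalose 2 rose and 2 fell, with a median of 0.08. These shares of 13.3% each lay near the 9.34% and 13.5% of all genes. AGBE, the glycogen branching enzyme, rose by 1.10 ± 0.12, and Tps1, which makes the blood sugar trehalose, by 0.80 ± 0.21. Treh, which splits trehalose, fell by 0.91 on the log2 scale (adjusted p = 0.00793), and UGP fell by 0.63.

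**Figure D2:**
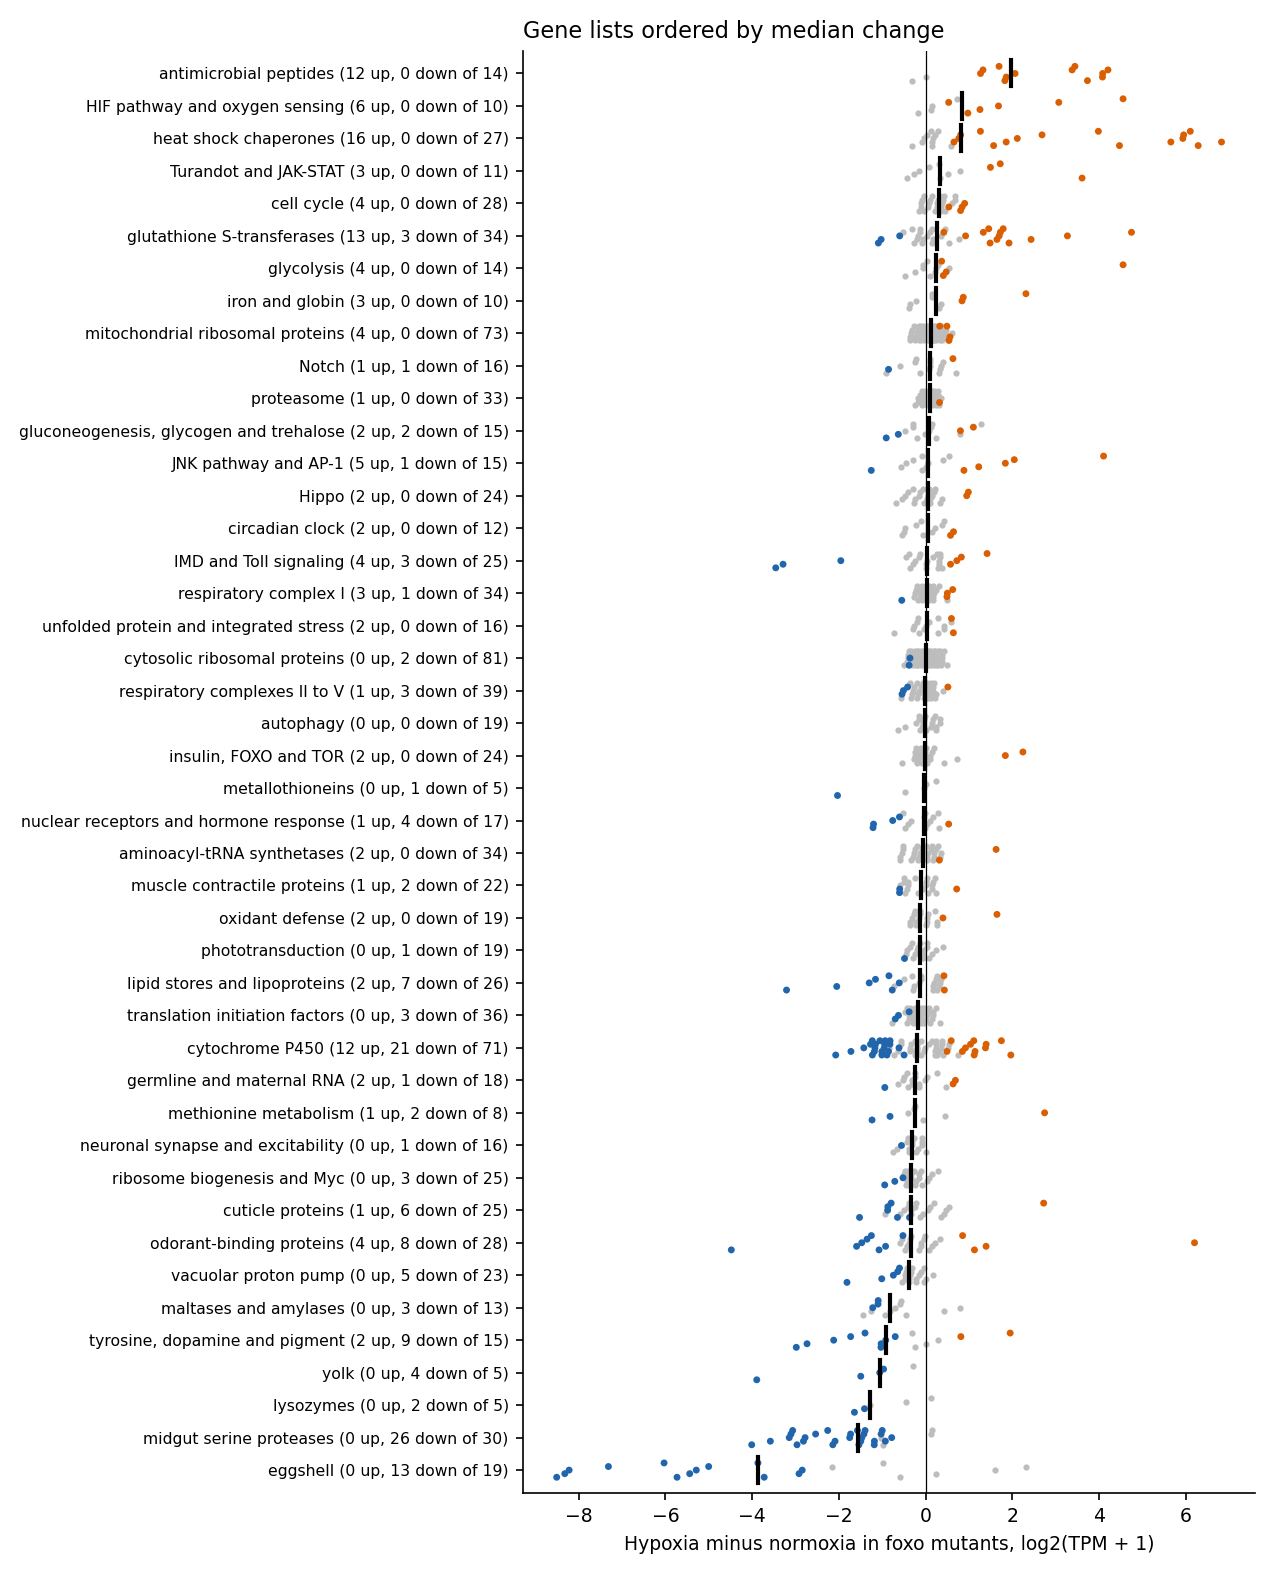
Each row is a gene list, ordered by its median (black bar), with 1 point per tested member at its hypoxia minus normoxia difference on log2(TPM + 1) in foxo mutants. Orange and blue points passed an adjusted p under 0.05 and grey points did not. Antimicrobial peptides (median 1.96) stand at the top and eggshell genes (median -3.87) at the bottom.

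Most antimicrobial peptide genes rose. Of 14 antimicrobial peptide genes, secreted peptides that the fat body and gut make against bacteria and fungi, 12 rose and none fell, with a median of 1.96. Mtk (metchnikowin) went from 51.9, 63.1, 61.8 and 50.1 TPM in normoxia to 664, 852, 1019 and 264 TPM in hypoxia, a change of 3.45 ± 0.37 (adjusted p = 6.15e-06). Hypoxia library 4 was the lowest and was still above every normoxia library. The same library was the lowest of the hypoxia group for DptB, at 85.7 TPM against 250 to 419 TPM in the others, and for AttC, at 45.6 TPM against 114 to 211 TPM. DptB rose by 4.21 ± 0.50 and AttC by 3.73 ± 0.43, both from normoxia levels under 16 TPM. AttA and AttB, neighbours on 2R (14747362 to 14750165) whose reads may be shared, rose by 4.09 and 4.08, and Dro beside them by 1.86. The cecropins CecA1 and CecA2 rose by 1.70 and 1.83. Drs (drosomycin), the most abundant peptide gene of the list, did not move with them. It stood at 1035, 1360, 799 and 945 TPM in normoxia and at 1114, 967, 1158 and 895 TPM in hypoxia, a change of 0.02 ± 0.17 (adjusted p = 0.960).

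The Bomanins, short secreted peptides of the Toll response, were looked at after their values had been seen. Of 12 tested 11 rose and none fell, with a median of 2.07. Their summed share of all TPM was 0.219%, 0.286%, 0.184% and 0.198% in normoxia and 1.38%, 1.16%, 1.34% and 0.775% in hypoxia, again with library 4 lowest among the hypoxia libraries and no overlap. IM2 (BomS2) alone rose from a mean of 353 to 2889 TPM. IM33, also named as an immune-induced molecule, went the other way, from between 1601 and 2425 TPM to between 626 and 950 TPM, without overlap (-1.26 ± 0.19, adjusted p = 0.000178). The signaling genes upstream were less uniform. Of 25 IMD and Toll pathway genes 4 rose, PGRP-SD, PGRP-SA, imd and pll, and 3 fell. The IMD and Toll count depended on single libraries and on scaling, with 1 rise without hypoxia library 1, 2 without normoxia library 4 or hypoxia library 3, and 8 rises and 5 falls when each library was scaled by the median of its gene ratios. The NF-kappaB factor Rel changed by 0.04 ± 0.24 (adjusted p = 0.933). The 3 that fell, PGRP-SC1a (-3.46), PGRP-SC1b (-3.29) and PGRP-SC2 (-1.95), encode amidases that break down bacterial peptidoglycan and sit together on 2R (8709733 to 8717695), and the first pair are near-identical copies. Of 6 hemocyte markers 4 were tested and none passed in limma, although 3 had a negative change at an unadjusted p under 0.05. Their summed level was 16.6 to 21.4 TPM in normoxia and 6.76 to 12.1 TPM in hypoxia, none of them was at 0 throughout, and their part in the immune results was not tested. In whole bodies, fewer cells of a type and less RNA per cell cannot be told apart.

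Some stress signaling genes of the JNK and JAK-STAT pathways rose. Ets21C, a transcription factor induced by JNK in injured tissue, rose from 0.539, 0.796, 0.503 and 0.401 TPM to 30.0, 19.1, 29.0 and 26.4 TPM, by 4.11 ± 0.22 (adjusted p = 5.79e-09). Socs36E, an inhibitor of JAK-STAT that the pathway itself induces, rose from between 5.50 and 8.12 TPM to between 76.8 and 114 TPM, by 3.61 ± 0.19. For both genes the lowest hypoxia library was library 2. The cytokine upd3 rose by 1.72 from under 0.31 TPM, Gadd45 by 2.05 and the AP-1 subunit Jra by 1.23. In all, 5 of 15 JNK genes rose and 1 fell, egr, the fly TNF, at -1.25, with a list median of 0.06. Of 11 Turandot and JAK-STAT genes 3 rose, Socs36E, upd3 and TotC, and none fell, with a list median of 0.34.

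Detoxifying enzymes split by family. Among glutathione S-transferases, which attach glutathione to reactive compounds, 13 of 34 rose and 3 fell. GstD2 went from 1.98, 3.53, 3.22 and 2.39 TPM to 95.8, 99.9, 120 and 85.2 TPM, a change of 4.75 ± 0.22 (adjusted p = 1.13e-09), with hypoxia libraries close to each other. GstE7 rose by 2.43 ± 0.17 and GstD1, the most abundant of the D class, by 1.65 ± 0.19. The members that fell were GstE10, GstZ2 and GstE12, the latter by 0.60. Among cytochrome P450 genes, oxidases of hormones, lipids and toxins, falls outnumbered rises, at 21 against 12 of 71. Cyp6a23 rose by 1.97, while Cyp4ad1 fell from between 10.9 and 16.0 TPM to between 1.86 and 3.11 TPM (-2.07 ± 0.20). Cyp4g1, which makes cuticular hydrocarbons and is the most abundant, changed by -0.84 ± 0.39 with overlapping groups (adjusted p = 0.144). Of 19 oxidant defense genes 2 rose, GstD1 and Trx-2. MtnC, a metallothionein that binds metal ions, fell from 370, 480, 272 and 229 TPM to 88.0, 70.2, 85.8 and 71.2 TPM (-2.04 ± 0.32), the only 1 of 5 metallothioneins to pass. Of 10 iron and globin genes 3 rose, the ferritin subunits Fer1HCH (0.87) and Fer2LCH (0.84) and Tsf1. Tsf1, the secreted iron carrier transferrin, went from 351, 399, 168 and 127 TPM to 1452, 1318, 1422 and 685 TPM, with hypoxia library 4 lower than the other 3 but above all of normoxia.

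The largest falls were in eggshell genes. Follicle cells around each egg chamber first secrete the vitelline membrane and then the chorion. Of 19 eggshell genes tested 13 fell and none rose, with a median of -3.87. Vm26Ab, a vitelline membrane protein of chromosome 2L (5957004 to 5957639), stood at 1179, 917, 1428 and 1096 TPM in normoxia and at 1.09, 2.28, 5.47 and 3.81 TPM in hypoxia. All 4 hypoxia libraries held under 6 TPM, and the change was -8.22 ± 0.34 (adjusted p = 2.35e-10). Vm32E changed by -8.51 ± 0.80 and Vm34Ca by -8.32 ± 0.89. Vm26Aa, Vm26Ac and psd, which lie beside Vm26Ab and up to position 5964951, fell too, with changes of -7.32 for Vm26Aa and -5.73 for psd. Vml, Cp7Fb and dec, all on the X chromosome, changed by -6.03, -5.44 and -5.29. For Vm26Aa, Vm34Ca and Cp7Fb hypoxia library 3 was the highest, at 133, 45.6 and 39.6 TPM.

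The chorion genes were more mixed and varied among normoxia libraries. Cp36 fell from 1608, 1042, 3042 and 3241 TPM to 104, 142, 956 and 353 TPM (-2.92 ± 0.58), without overlap. Cp15, which is made at the last steps of eggshell formation, stood at 16.2, 1213, 2492 and 6144 TPM in normoxia and at 3075, 3669, 7046 and 2438 TPM in hypoxia. Its normoxia libraries spanned the whole range of the hypoxia libraries apart from library 3, and the change of 2.31 ± 1.22 did not pass (adjusted p = 0.199). Cp18 and Cp16, at 1.60 and 0.24, did not pass either. The yolk proteins, made by fat body and follicle cells, fell less than the vitelline membrane genes. Yp2 went from 6031, 6045, 6654 and 5243 TPM to 2090, 1802, 2969 and 1801 TPM (-1.49 ± 0.27, adjusted p = 0.000759), and Yp1 and Yp3 fell by 1.06 and 0.97 on the log2 scale. With fit, a fat body gene induced by feeding (-3.89 ± 0.49), 4 of 5 yolk list members fell. Among female germline and maternal genes 2 of 18 rose, nos (0.69) and exu (0.64), and orb fell (-0.94). The call of orb was lost without normoxia library 3 or 4 or hypoxia library 1 or 2. The call of nos was lost without normoxia library 1 or hypoxia library 1 or 4. Of 6 fat body markers 4 were tested, and apolpp and Yp1, which are themselves among the genes described here, fell. Mean levels of Lsp2 were 7.90 TPM in normoxia and 24.2 TPM in hypoxia (adjusted p = 0.0988) and those of to 32.5 and 37.4 TPM, and neither passed. The summed level of the markers, nearly all of it Yp1, was 7052 to 8456 TPM in normoxia and 3309 to 4280 TPM in hypoxia, and its part in the yolk result was not tested. Of 28 cell cycle genes 4 rose, aurB, Orc1, RnrS and Mcm3, by 0.54 to 0.90, and none fell. The cell cycle count was 1 without normoxia library 1, 2 without hypoxia library 1, 9 without hypoxia library 2 and 13 under median-of-ratios scaling.

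**Figure D3:**
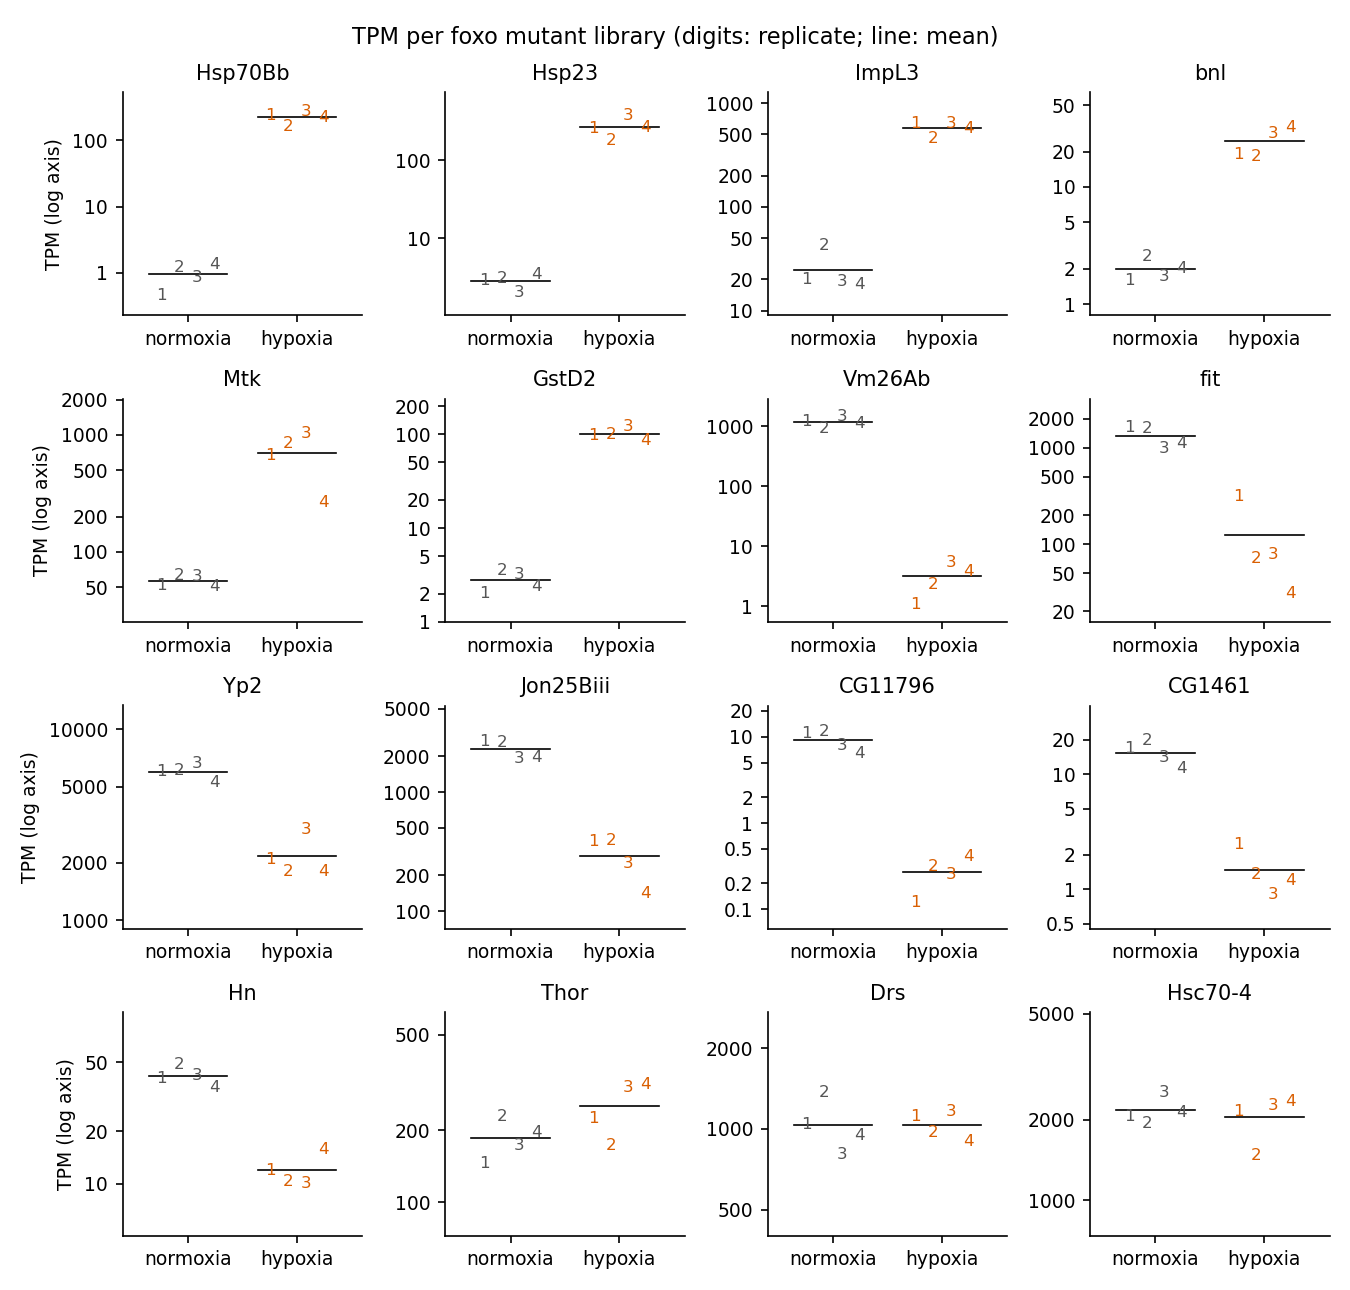
TPM of 16 genes in each foxo mutant library (log axes that differ between panels), with digits for the replicate number and a line for the group mean. The 13 genes from Hsp70Bb to Hn show no overlap between normoxia and hypoxia, whereas Thor, Drs and Hsc70-4 overlap.

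Digestive enzymes of the midgut fell together. Of 30 serine proteases, the trypsins and Jonah chymotrypsins that cleave dietary protein, 26 fell and none rose, with a median of -1.55. Jon25Biii went from 2673, 2617, 1935 and 1957 TPM to 382, 395, 249 and 142 TPM (-3.07 ± 0.38). Jon99Fi changed by -2.78 ± 0.20 and Ser8 by -3.10 ± 0.23. The most abundant trypsin, alphaTry, fell from 5808, 5587, 3960 and 4522 TPM to 2502, 2918, 2533 and 1830 TPM (-1.02 ± 0.17), so its highest hypoxia library was still below its lowest normoxia library. The list as a whole took 2.09% to 2.64% of all TPM in normoxia and 0.495% to 0.752% in hypoxia. Of 13 maltase and amylase genes 3 fell and none rose. The starch-cleaving amylases Amy-p and Amy-d, near-identical copies, changed by -1.22 ± 0.20 and -1.10 ± 0.21, and the third was Mal-A3. Among maltases and amylases 6 fell without normoxia library 4 and 7 with a replicate block. Of 5 lysozymes, which digest bacterial walls in the gut, LysD and LysE fell, by 1.41 and 1.64 on the log2 scale. The call of LysD was lost without both hypoxia libraries 2 and 4. Of 6 midgut markers 5 were tested and 2 fell, alphaTry and mex1, the latter from 43.8 to 20.3 TPM. Mean levels of nub were 4.30 TPM in normoxia and 7.48 TPM in hypoxia and those of Myo31DF 22.7 and 25.5 TPM, and neither passed. The summed level of the markers, mostly alphaTry, was 4027 to 5876 TPM in normoxia and 1892 to 2956 TPM in hypoxia, and its part in the protease result was not tested.

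Most genes for the breakdown of tyrosine fell. This route takes phenylalanine to tyrosine and then to fumarate, and a side branch leads to dopamine and cuticle pigment. Of 15 genes 9 fell and 2 rose, with a median of -0.92. Hn, phenylalanine hydroxylase at the head of the route, fell from 40.3, 48.4, 41.8 and 35.8 TPM to 11.9, 10.3, 10.1 and 15.6 TPM (-1.73 ± 0.26, adjusted p = 0.000157). CG1461 (Tat), tyrosine aminotransferase, fell from 16.7, 19.8, 13.8 and 11.2 TPM to 2.46, 1.35, 0.903 and 1.19 TPM (-2.73 ± 0.22). CG11796 (Hpd), which makes homogentisate, fell from between 6.42 and 11.6 TPM to under 0.41 TPM in every hypoxia library (-2.98 ± 0.20, adjusted p = 7.67e-08). The later enzymes hgo, GstZ2 and Faa changed by -1.03, -1.02 and -1.40. In the dopamine branch, Ddc, which decarboxylates dopa, fell by 0.92 and amd by 2.12 on the log2 scale. The call of Ddc was lost without both hypoxia libraries 2 and 4. The members that rose were b (black), at 1.95, which makes beta-alanine for cuticle tanning, and yellow-f, at 0.81.

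Of 26 genes of lipid stores and lipoproteins 7 fell and 2 rose. Falls in the list numbered 5 to 8 in all alternatives, whereas rises went from 0 without normoxia library 4 or hypoxia library 3 to 4 without hypoxia library 2 and to 7 under median-of-ratios scaling. The gut lipase mag changed by -3.21 ± 0.24 and apolpp, the carrier protein of blood lipid, by -2.05 ± 0.32, from between 168 and 251 TPM to between 45.4 and 57.5 TPM. The fat-making enzymes ACC (-1.30) and FASN1 (-1.16) fell as well. Desat1 changed by -0.30 ± 0.17, with overlapping groups (adjusted p = 0.227). Known FOXO targets and insulin pathway genes gave few changes. Of 24 insulin, FOXO and TOR genes 2 rose and none fell. ImpL2, which binds insulin-like peptides in blood, rose from 32.7, 37.2, 46.5 and 38.1 TPM to 165, 142, 221 and 229 TPM (2.25 ± 0.26). Ilp8, a peptide released by damaged tissue, rose by 1.84 ± 0.45 from normoxia libraries between 4.08 and 37.2 TPM. The groups of Ilp8 overlapped, as hypoxia library 1 (36.7 TPM) lay just below normoxia library 2. The Ilp8 call was lost without both hypoxia libraries 2 and 4. Thor, the translation repressor and FOXO target, stood at 145, 229, 173 and 195 TPM in normoxia and at 224, 172, 302 and 311 TPM in hypoxia. Hypoxia libraries 3 and 4 were above all of normoxia and libraries 1 and 2 were not, and the change of 0.42 ± 0.27 did not pass (adjusted p = 0.302). InR changed by 0.04 ± 0.30, and the kinase Hipk by 0.08 ± 0.34 (adjusted p = 0.902), with overlapping groups that reached from 7.54 TPM to 15.2 TPM, both in hypoxia.

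The large machines of growth and respiration gave few calls. Of 81 cytosolic ribosomal protein genes 2 fell, RpL3 and RpS4, and none rose, with a median of 0.00. Without hypoxia library 4, 10 rose and 10 fell, and without any 1 of the other libraries at most 2 fell and none rose. Of 73 mitochondrial ribosomal protein genes 4 rose, mRpS14 the first among them at 0.56, and none fell. Without hypoxia library 4, 8 mitochondrial ribosomal protein genes rose and 5 fell, and 1 rose without normoxia library 2, 3 or 4 or hypoxia library 1. In respiratory complex I 3 of 34 rose and 1 fell, and in complexes II to V 1 of 39 rose and 3 fell, among them ATPsynbeta at -0.54 ± 0.13. No complex I gene rose without normoxia library 2 or 3 or hypoxia library 1 or 2, and without hypoxia library 4 the falls were 4 in complex I and 8 in complexes II to V. In complexes II to V 1 gene fell without normoxia library 2, 3 or 4 or hypoxia library 2. Of 33 proteasome genes 1 rose, Prosalpha7, at 0.31. The proteasome count was 5 without hypoxia library 2, 2 without hypoxia library 3 and 0 without any other single library. Of 36 translation initiation factors 3 fell, with 10 down without hypoxia library 4, none without normoxia library 3 and 1 without any other single library. Ribosome biogenesis genes had a median of -0.33, with 3 of 25 down, among them the RNA polymerase I subunits RpI135 (-0.94) and RpI1 (-0.71). In the list of ribosome biogenesis and Myc, 13 fell without hypoxia library 4, 4 without normoxia library 2 and 1 without any other single library. The vacuolar proton pump had a median of -0.38 and 5 of 23 members down, Vha100-5 the most at -1.81, and 11 fell without hypoxia library 4 and 3 or 4 without any other single library. Among 19 autophagy genes none passed in either direction, with a median of -0.01 in limma, and 2 were higher and 2 lower at an unadjusted p under 0.05. The gene nearest to a call was Atg10, at an adjusted p of 0.0701. Without hypoxia library 2, 2 autophagy genes rose, without hypoxia library 4, 2 fell, and median-of-ratios scaling gave 3 up and 2 down.

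Of 22 muscle genes TpnC25D rose (0.72) and 2 fell, among them Mlc1 (-0.60). No muscle gene fell without normoxia library 2 or 4 or hypoxia library 2 or 3, and 5 fell under median-of-ratios scaling. Of 19 phototransduction genes only inaD passed, at -0.49, a call that was lost without any 1 of the libraries except hypoxia library 4 and with a replicate block (adjusted p = 0.0810), and ninaE, the main rhodopsin, changed by 0.03 ± 0.11. Of 16 neuronal genes, elav passed, at -0.56, a call that was lost in 6 of the 8 fits without 1 mutant library and with a replicate block (adjusted p = 0.0580), and 15 of the 16 changes were negative, with a median of -0.31. Among odorant-binding proteins, secreted carriers that many tissues make, 4 of 28 rose and 8 fell. Obp99b had the largest rise outside the chaperones, from 5.06, 4.72, 1.22 and 1.79 TPM to 317, 273, 310 and 234 TPM (6.20 ± 0.72), and Obp19c fell from between 143 and 283 TPM to between 1.88 and 35.4 TPM (-4.48 ± 0.59).

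Small noncoding RNAs and histone mRNAs stood out once their values had been seen, and were grouped for that reason. The libraries were selected for poly-A tails, which spliceosomal snRNAs, snoRNAs and replication-dependent histone mRNAs mostly lack, so the values cover the part of each RNA that such a library holds. Of 31 snRNAs, the RNA cores of the spliceosome, 26 rose and none fell, with a median of 1.94. Many are copies with equal values, and the 26 hold 21 different sets of values. Their summed share was 0.0886%, 0.139%, 0.0799% and 0.112% of all TPM in normoxia and 0.548%, 0.791%, 0.394% and 0.594% in hypoxia. The snoRNAs, guides for the chemical marking of ribosomal RNA, went the other way, with 111 of 223 down, 7 up and a median of -1.26. Their share was 0.314%, 0.208%, 0.325% and 0.330% in normoxia and between 0.137% and 0.167% in hypoxia. snoRNA:Me28S-G2703a fell from a mean of 52.9 to 5.55 TPM, while snoRNA:Or-CD1 rose from 67.0 to 249 TPM.

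Replication-dependent histone genes rose in 80 of 98 cases and fell in none, with a median of 2.18. Because the repeated histone units are identical, these 80 hold only 14 different sets of values, and they make up 80 of the 726 genes called up. Counting genes with equal values in all 15 libraries once left 654 sets of values up and 1213 down. The histone share was 0.123%, 0.196%, 0.154% and 0.184% in normoxia and 0.770%, 0.413%, 0.430% and 0.983% in hypoxia, so hypoxia libraries 1 and 4 were well above libraries 2 and 3. The variants made outside S phase from polyadenylated mRNA did not pass, with His2Av at -0.01, His3.3A at 0.17, His3.3B at -0.09 and His4r at 0.42. In w1118, where 16.2% of all genes passed upward and 9.84% downward at any fold, these groups gave 24 snRNAs up, 76 snoRNAs down and 83 histone genes up. The difference between the genotypes passed for 3 snRNAs and 3 snoRNAs, all with a lower change in the mutant, and for no histone gene in limma, where 1 was higher and 1 lower at an unadjusted p under 0.05.

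**Figure D4:**
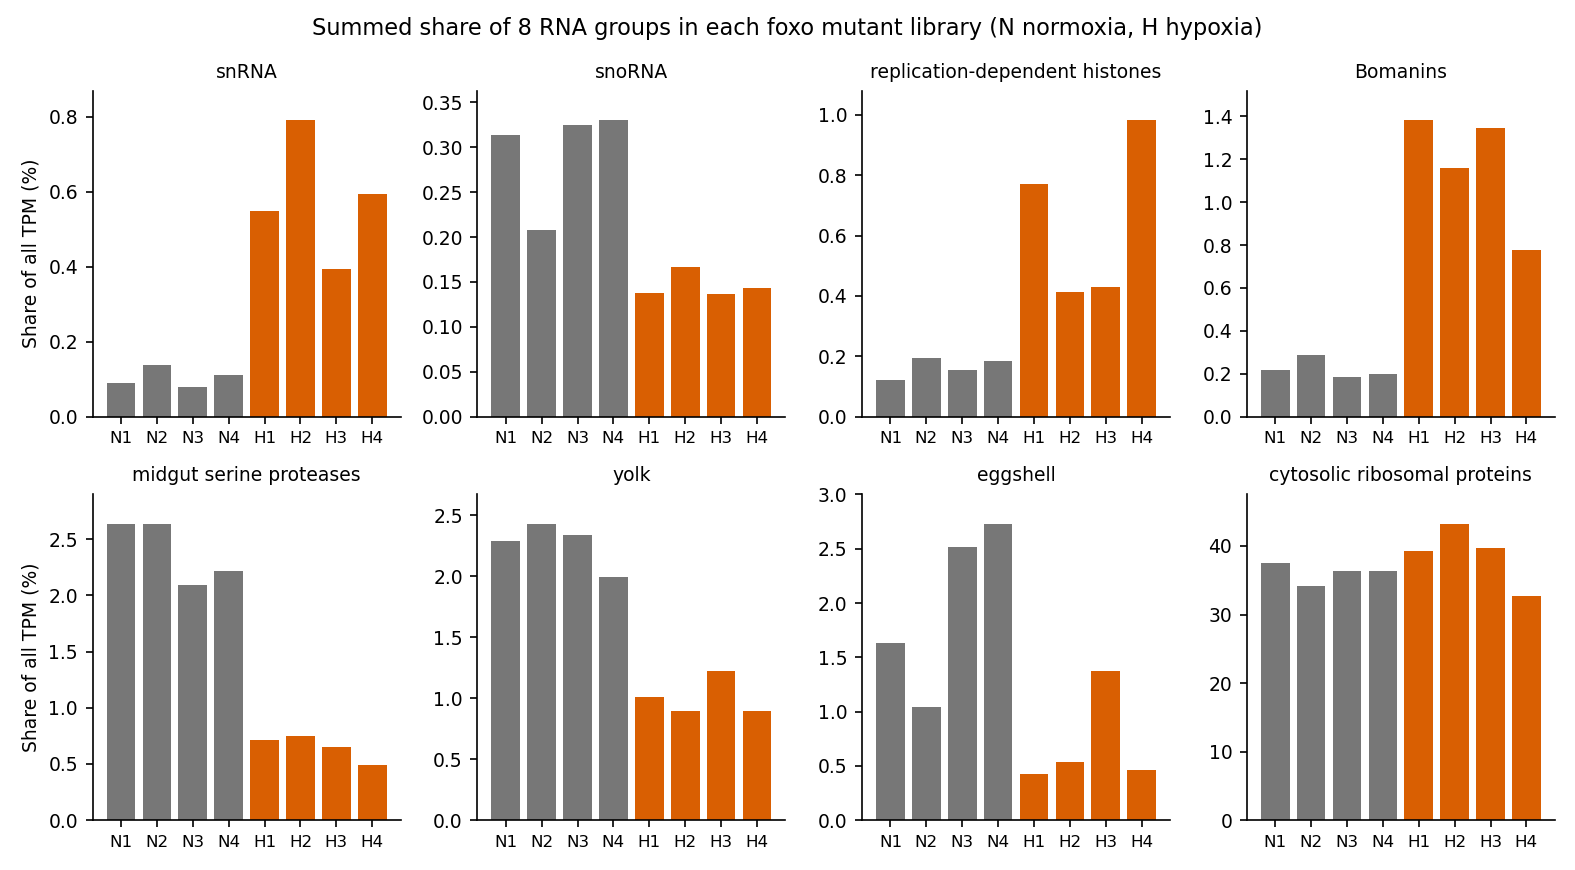
Bars give the share of all TPM (%) taken by 8 groups of RNAs in normoxia libraries N1 to N4 (grey) and hypoxia libraries H1 to H4 (orange) of foxo mutants, on axes from 0. snRNAs, histones and Bomanins are higher in every hypoxia library, and snoRNAs, midgut proteases and yolk are lower in every one. Eggshell and ribosomal protein shares overlap between the groups.

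Calls were spread over the chromosome arms, apart from the small chromosome 4, which was noticed after its values had been seen. Of its 74 genes tested none rose, 18 fell and 70 had a negative change, with a median of -0.47 against -0.06 to 0.00 on the other arms. Among them were apolpp, ATPsynbeta (-0.54) and Pur-alpha (-0.76). Its count depended on single libraries. On chromosome 4, 25 genes fell without hypoxia library 4, and 7 to 11 without any other single library. In w1118 the median of chromosome 4 was 0.01 with 3 genes down, beside 0.22 for all genes, and the difference between the genotypes passed for none of the 74 in limma. At an unadjusted p under 0.05, 11 had a lower change in the mutant and none a higher one, beside 898 lower and 421 higher of all genes.

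Most of what rose in the mutant also rose in w1118. Of the 726 genes called up, 521 (71.8%) were called up in w1118, where they are 39.4% of 1324 genes up (12.9% of those tested). Of the 1218 called down, 671 (55.1%) were called down in w1118, where they are 74.6% of 899 genes down (8.74%). Opposite calls were given to 7 of the genes up and 19 of the genes down. The normoxia libraries differ between the genotypes, so these comparisons share no sample. With the opposite calls included, 182 genes up and 511 genes down in the mutant did not pass an adjusted p under 0.05 the same way in w1118. The difference itself passed for only 38 and 69 of them. Over all genes, the change was higher in the mutant for 110 (1.07%) and lower for 159 (1.55%) at an adjusted p under 0.05.

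**Figure D5:**
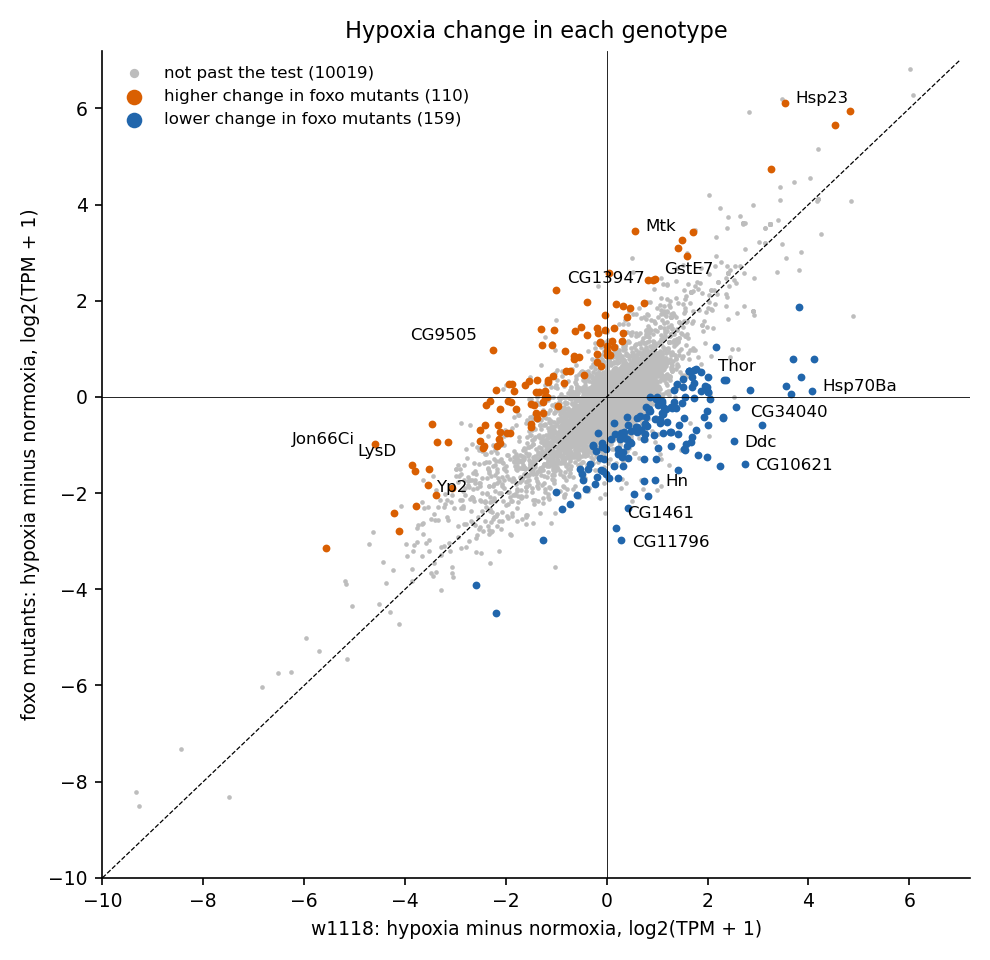
The hypoxia minus normoxia difference on log2(TPM + 1) of each of 10288 genes in w1118 (x axis) and in foxo mutants (y axis), with equal changes on the dashed line. Orange points are the 110 genes with a higher change in the mutant and blue points the 159 with a lower change, at an adjusted p under 0.05 for the difference.

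Among genes with a higher change in the mutant, the falls of some gut and yolk genes were smaller. The difference was positive and passed for 8 of 30 midgut proteases, among them Jon99Fi (1.33 ± 0.30) and alphaTry (1.16 ± 0.26). The 8 include Jon66Ci and Jon66Cii, which stood at 1.76 and 0.134 TPM in mutant normoxia against 149 and 10.7 TPM in w1118 normoxia and so had little level to lose in the mutant. The difference passed as well for LysD (2.46 ± 0.58), Yp2 (2.02 ± 0.40) and Yp3 (1.15 ± 0.28). For other genes the rise was larger. Mtk changed by 3.45 in the mutant and by 0.57 in w1118, a difference of 2.88 ± 0.54 (adjusted p = 0.00854). Hsp23 changed by 6.11 and 3.53, a difference of 2.58 ± 0.30. Both genes started lower in the mutant. Hsp23 had means of 2.82 TPM in normoxia and 269 TPM in hypoxia, against 17.6 and 213 TPM in w1118. Mtk had means of 56.7 and 700 TPM, against 606 and 913 TPM in w1118. The part of the lower start in these differences was not tested. A higher change in the mutant also held for 6 of 34 glutathione S-transferases, among them GstE7 (1.51 ± 0.24), and a lower change for 1. CG9505 (Nepl4), a neprilysin-like gene, changed by 0.97 in the mutant and by -2.25 in w1118.

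Lower changes in the mutant met in sugar and tyrosine enzymes. Of 13 maltase and amylase genes 6 had a lower change and none a higher one, and Mal-A6 changed by -1.44 in the mutant (adjusted p = 0.0565) and by 2.24 in w1118. Of 15 tyrosine, dopamine and pigment genes 5 had a lower change and 1 a higher one. Ddc stood at -0.92 in the mutant and 2.53 in w1118 (difference -3.44 ± 0.32, adjusted p = 4.37e-05), CG11796 at -2.98 and 0.29 (-3.27 ± 0.30) and Hn at -1.73 and 0.95 (-2.68 ± 0.39). CG11796 started lower in the mutant, at a normoxia mean of 9.25 TPM against 52.3 TPM in w1118. For Hn these means were 41.6 and 42.4 TPM. The part of the lower start of CG11796 in its difference was not tested. Thor changed by 0.42 in the mutant and 2.01 in w1118, a difference of -1.59 ± 0.40 (adjusted p = 0.0443). For Hipk, with 0.08 and 0.96, the difference did not pass (adjusted p = 0.498), nor for InR (0.560) or Rel (0.523). CG34040 was at 0.520 TPM or less in all 8 mutant libraries and changed by 3.66 in w1118, so its difference rests on a gene that was nearly silent in the mutant in either condition.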

How the data were processed

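Whole-body RNA of foxo mutant and w1118 females was made by the authors into directional poly-A libraries (RNA integrity above 8 by their methods), sequenced on a NextSeq 500, and assigned to RefSeq transcripts of dm6 with kallisto. No source used here gives the tool versions. Values in the deposited table are TPM, estimated by the authors for 34111 transcripts. TPM keep no depth, so only the spread between libraries gives precision. The authors' sleuth tables of hypoxia-regulated genes per genotype (p-values, q-values and fold) were not used.

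TPM were summed per gene (17031 genes, names matched to RefSeq, coordinates of assembly Release 6), and 10288 genes were kept whose mean reached 1 TPM in any group. Limma 3.58.1 (R 4.3.3) was run on log2 of TPM plus 1 (variance trend, 1 model of 4 groups, 11 residual degrees of freedom), with Benjamini-Hochberg adjustment. The script was tested on simulated data. The study calls the replicates independent. Replicate numbers were not taken as pairs. Genes, lists and tests were chosen with earlier results of these data known.

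Named genes were up to 12 per direction with the largest change (called, no overlap, a mean of 10 TPM or more), 3 per list (the 2 smallest p and the most abundant), 6 per direction of the genotype difference, and those the study names. Others were chosen after their values were seen, namely IM2, IM33, Jon66Cii, the groups of small RNAs, histones and Bomanins, chromosome 4 and further list members. Near-identical copies share reads. Alternatives were other pseudocounts, filters, scalings, cutoffs, variance models, library sets and a replicate block. Sequences were not analysed here.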

Additional observations from a re-analysis of the deposited data

Results flagged for a closer look

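Within the groups of 4 libraries, 1 library stood far from the other 3 for 17 named values. Chance alone sets off this check in about 1 group in 20, and it was applied to 161 named genes in both conditions. Groups also needed a log2 range of at least 0.2, so the number expected by chance is not known exactly. The count of 17 was not tested against it. In normoxia the outlying values were ImpL3 in library 2 (42.1 TPM, the others 18.0 to 19.8), GstE7 in library 2 (31.4 TPM), ERR in library 2 (25.6 TPM), CG34040 in library 2 (0.520 TPM), Cyp313a4 in library 3 (1.07 TPM, below the others), eIF5B in library 3 (86.2 TPM), Prosbeta5 in library 1 (431 TPM) and Atg101 in library 1 (15.4 TPM, below the others). In hypoxia they were LysE (51.1 TPM), CecA2 (16.5 TPM) and Dro (114 TPM) in library 3, all above the others, and per in library 2 (7.41 TPM, below the others). Hypoxia library 4 held 5 of the 17. It was low for PGRP-SD (8.16 TPM, the others 31.6 to 36.9), Tsf1 (685 TPM, the others 1318 to 1452), Tps1 (415 TPM) and ND-B12 (863 TPM), and high for Cyp313a4 (0.212 TPM). PGRP-SD, a peptidoglycan receptor, and Tsf1 are immune-induced genes, and the antimicrobial peptides Mtk, DptB and AttC were lowest of the hypoxia group in the same library. Whether hypoxia library 4 held more outlying values than chance gives was not tested.

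The hypoxia change differed between foxo mutants and w1118 at an adjusted p under 0.05 in limma for 32 named genes. Of the named genes, 6 per direction were picked by this same difference, so the count does not describe genes at large. Over all genes tested, the change was higher in the mutant for 1.07% and lower for 1.55%. The values that follow are the mutant's change minus that of w1118 on log2(TPM + 1). The difference was positive among chaperones and their kin for Hsp23 (2.58), Hsp70Bc (1.13), Hsp68 (1.12) and Gp93 (0.75), and among detoxifying enzymes for GstE7 (1.51) and GstD2 (1.5). It was positive for the gut enzymes LysD (2.46), Jon99Fi (1.33) and alphaTry (1.16) and for the yolk proteins Yp2 (2.02) and Yp3 (1.15). It was also positive for Jon66Ci (3.62), which had a mean of 1.76 TPM in mutant normoxia against 149 TPM in w1118 normoxia, and whose own change in the mutant was -0.97 (adjusted p = 0.0778). Immune and stress genes with a positive difference were Mtk (2.88), PGRP-SD (2.72) and TotX (1.89). CG13947 (3.23), CG9505 (3.22) and CG3597 (2.89) also had a positive difference. Some genes with a positive difference started lower in the mutant. Normoxia means were 2.82 TPM against 17.6 TPM in w1118 for Hsp23, 2.78 against 8.88 TPM for GstD2 and 56.7 against 606 TPM for Mtk. Others, such as TotX (75.9 against 9.07 TPM), started higher. The difference was negative for the tyrosine and dopamine genes Ddc (-3.44), CG11796 (-3.27), CG1461 (-2.92) and Hn (-2.68). It was negative too for the maltases Mal-A6 (-3.68) and Mal-A8 (-3.67), and for CG10621 (-4.13), Hsp70Ba (-3.95), CG34040 (-3.61) and CG32023 (-2.29). Hsp70Ba reached at most 0.153 TPM and CG34040 at most 0.520 TPM in the mutant libraries. The differences of this pair therefore rest on w1118, where their hypoxia means were 21.5 and 15.8 TPM. Smaller negative differences were those of Dro (-1.96), Thor (-1.59), Cpr51A (-1.40) and Desat1 (-1.17).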

How the results depend on the processing

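Across the alternatives, the count of genes up stayed between 528 and 964 and that of genes down between 780 and 1434, apart from the cutoff of 2-fold (378 up and 700 down). A pseudocount of 5 gave 780 genes down. Leaving out each of the 8 mutant libraries in turn gave 591 to 964 genes up, 1044 to 1434 down, 70 to 152 with a higher change in the mutant than in w1118 and 100 to 166 with a lower one. The 70 came without normoxia library 4, the 100 without normoxia library 1, and 72 and 73 higher changes were left without hypoxia libraries 1 and 3. Leaving out each of the 7 w1118 libraries in turn was added after seeing the data. It widened the range to 58 to 152 higher and 93 to 235 lower changes, with 58 higher and 93 lower without w1118 normoxia library 4, 96 lower without w1118 normoxia library 3 and 235 lower without w1118 hypoxia library 1. The counts of genes up and down stayed within the ranges above. A filter at a mean of 5 TPM left 87 lower changes, with fewer genes tested, and median-of-ratios scaling gave 173 higher changes, with rises at 46.0% of calls in place of 37.4%. The cause of these shifts was not tested. Without both hypoxia libraries 2 and 4, an alternative chosen after seeing the data, there were 707 genes up, 928 down, and 100 lower changes.

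Same-numbered normoxia and hypoxia libraries of the mutant correlated at 0.20, -0.07, 0.14 and 0.33, and normoxia libraries 1 and 2 each correlated better with the hypoxia library of the other's number, so the numbers were not taken as pairs. A replicate block gave 735 genes up and 1201 down, with 103 higher and 126 lower changes.

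Of 161 named genes 119 passed an adjusted p under 0.05, and 91 of these did so in the same direction under all 18 alternatives that tested them. Many named genes were picked by the size or p of this same change, so these counts do not describe genes at large. Over all genes tested, 9.34% passed upward and 13.5% downward. No called value changed sign. Without hypoxia libraries 2 and 4, 16 chaperones, 6 HIF genes, 12 antimicrobial peptides, 11 Bomanins and 13 glutathione S-transferases rose, and 13 eggshell genes, 23 midgut proteases, 3 yolk genes and 7 tyrosine genes fell. Over all alternatives the midgut protease count lay between 23 and 27, the eggshell count between 13 and 15 and the chaperone count between 15 and 20. snRNAs up ranged from 17 to 26, snoRNAs down from 78 to 116 and histone genes up from 62 to 89. Smaller counts moved more. Rises ranged from 1 to 13 in the cell cycle list, from 1 to 8 in IMD and Toll signaling, from 0 to 7 in lipid stores and lipoproteins, from 0 to 6 in the proteasome and from 0 to 3 in autophagy. Falls ranged from 0 to 10 in translation initiation factors, from 2 to 7 in maltases and amylases, from 12 to 23 in cytochrome P450 genes, from 3 to 11 in the vacuolar proton pump, from 1 to 13 in ribosome biogenesis and Myc and from 7 to 30 on chromosome 4.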
